A study of Mus musculus with 4 samples.

Results

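The genes of the axonemal dynein arms, of the complexes that dock and link them, and of the proteins that assemble them in the cytoplasm were followed in RNA from purified ependymal multicilia. The members were chosen by name as genes of known function, 47 in all, with earlier results of these data known, and no value entered the rule. Of these, 43 had at least 1 transcript row in the deposited table, which holds 12515 rows of 10213 gene symbols, and the 43 symbols held 50 rows. No row was found for Dnah8, Dnah10, Dnah17 and Pih1d3, which were not analysed here.

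The cilia came from mouse ependymal cells (mEPCs) of the C57BL/6 strain, grown from the telencephalon of newborn pups of either sex and induced to multiciliate by serum starvation. The cells were transfected repeatedly with a control siRNA (Ctrl-i) or an siRNA against Fmr1 (Fmr-i1). The paper's methods give 40 pmol of siRNA for cells in glass-bottom dishes and no separate amount for the flasks used to purify cilia. Multicilia were sheared off and purified at day 10. By the paper's methods, the sequenced material was apical cell cortex that bears the multicilia. The paper found basal bodies kept in isolated cortexes. RNA of multicilia here therefore means RNA of that material, and not of ciliary shafts alone. Each group held 2 libraries, 1 from each of 2 experiments (Exp.1 and Exp.2), and the values were FPKM, counts of fragments divided by the transcript's length and the library's total. All cells carried the wild-type genes, the knockdown rested on a single siRNA, and the sources used here do not say whether the experiments used separate litters. The p-values therefore measure only the spread between these 4 libraries. In the values below, the first of each pair is from Exp.1 and the second from Exp.2.

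Motile cilia bend because dynein arms on each doublet microtubule pull on the neighbouring doublet. Outer arms set mainly the beat frequency and inner arms mainly the shape of the beat, docking complexes fix the outer arms at their regular spacing, and the nexin-dynein regulatory complex links adjacent doublets and regulates the motors. The arms are folded and put together in the cytoplasm by dynein axonemal assembly factors with general chaperones before transport into the cilium, and loss of many of these proteins in people causes primary ciliary dyskinesia. Ependymal multicilia use this machinery to move cerebrospinal fluid.

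The row of Fmr1 itself stood at 0.42 and 8.13 FPKM in Ctrl-i and at 0 FPKM with Fmr-i1, in Exp.1 as in Exp.2. The whole table held 162 such rows at 0 in the pair of Fmr-i1 libraries, and 0 rows at 0 in a Ctrl-i library. A value of 0 can therefore reflect how the table was made, so no fold against it is given. All 10 markers of multiciliated ependymal cells had rows, with summed levels of 1191 and 1616 FPKM in Ctrl-i and 1534 and 1418 FPKM in Fmr-i1. All 6 astrocyte markers had rows too, with summed levels of 3082 and 2400 FPKM in Ctrl-i and 2099 and 2036 FPKM in Fmr-i1. Rows were found for 3 of 6 neuronal, 4 of 7 oligodendrocyte, 0 of 6 microglial, 1 of 5 fibroblast and 1 of 5 endothelial markers. Mitochondrial ribosomal RNA took 27.4% and 37.6% of all FPKM in the Ctrl-i libraries, and in the Fmr-i1 libraries 28.4% and 23.0%. Read counts are not in the table, so the depth behind each value is unknown.

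The 43 genes summed to 692.03 and 831.47 FPKM in Ctrl-i and to 802.55 and 790.13 FPKM in Fmr-i1, which made 0.119% and 0.141% of the total FPKM of the controls and 0.142% and 0.147% of that with Fmr-i1. The lowest of these sums belonged to Ctrl-i Exp.1 and the highest to Ctrl-i Exp.2, so the Fmr-i1 sums lay inside the range of the controls. As a share of the total, both Fmr-i1 libraries lay above both controls, in Exp.1 by a small margin. This total includes mitochondrial ribosomal RNA, whose part was largest in Ctrl-i Exp.2 (37.6%) and smallest in Fmr-i1 Exp.2 (23.0%). Shares without that RNA were not compared, so the order of these shares is no measure of the members alone. In such bulk material, fewer multiciliated cells and less RNA per cell or per cilium cannot be told apart. The summed multiciliated markers had the same order of the 4 libraries, lowest in Ctrl-i Exp.1 and highest in Ctrl-i Exp.2, and their part in these sums was not tested.

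**Figure D1:**
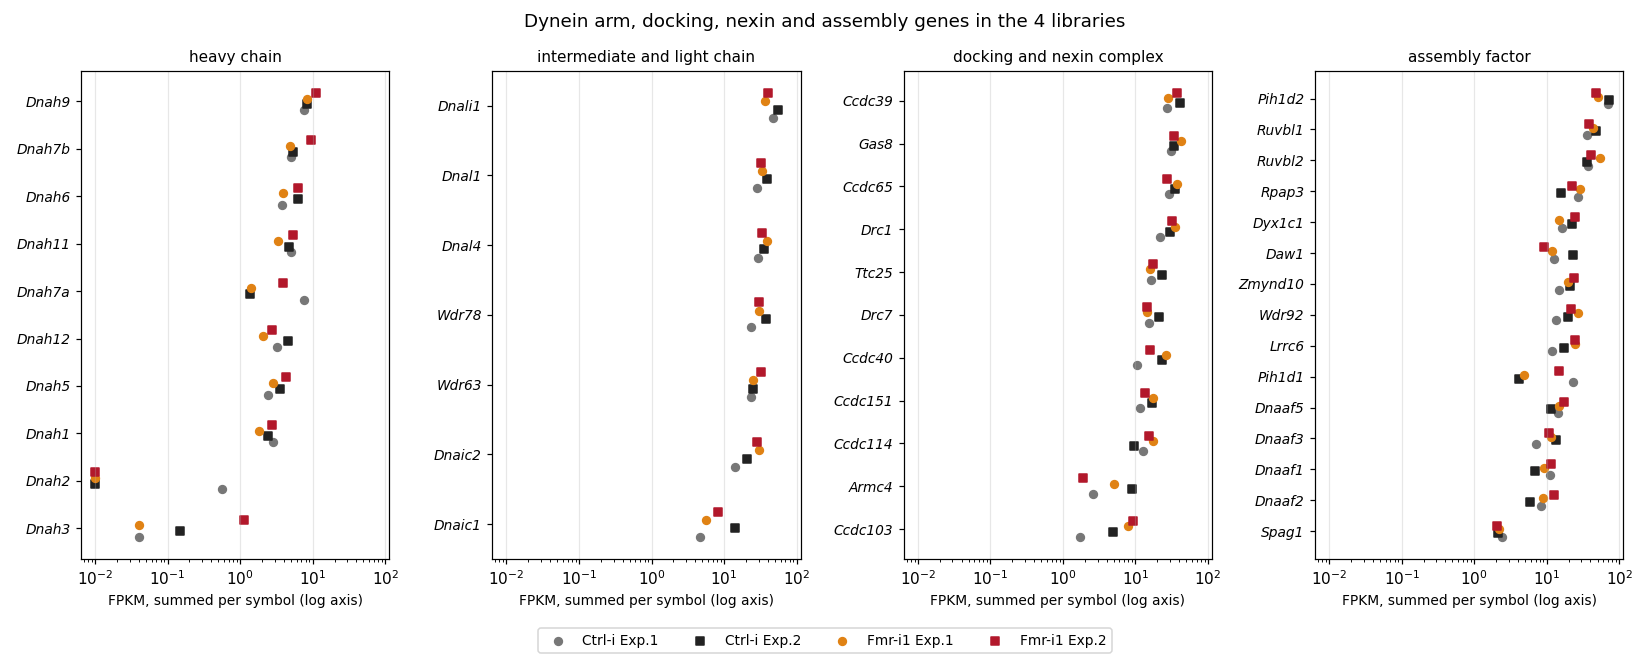
FPKM of each gene in the 4 libraries, summed over its transcript rows, on a log axis, in 4 panels by role. Circles mark Exp.1 and squares Exp.2, grey and black Ctrl-i and orange and red Fmr-i1. The heavy chains lie below the other roles, with Ctrl-i means of at most 7.95 FPKM, while Pih1d2, at the top of the assembly factors, has a Ctrl-i mean of 71.5 FPKM.

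The heavy chains are the motors themselves, and they were the least abundant of the 4 roles. Over 10 genes they summed to 38.19 and 36.64 FPKM in Ctrl-i and to 28.46 and 46.94 FPKM in Fmr-i1, and the Fmr-i1 libraries stood on either side of both controls. The Ctrl-i means of single genes ran from 0.095 to 7.95 FPKM, with a median of 4.18. The docking and nexin genes had a median of 18.1 FPKM and the assembly factors one of 16.5 FPKM in Ctrl-i. In Fmr-i1 the median over genes was 3.11 FPKM for heavy chains, 30.4 FPKM for intermediate and light chains, 16.7 FPKM for docking and nexin genes and 19.6 FPKM for assembly factors, so heavy chains stood lowest in both groups.

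Longer transcripts had lower levels across genes. Heavy chain transcripts that code for protein had a median length of 12693 bases, against 2874, 2347 and 1989 bases for coding transcripts of the other 3 roles. Over the 43 coding rows of the members, Spearman's rho between length and mean FPKM was -0.61 in Ctrl-i and -0.59 in Fmr-i1. It was -0.45 in Ctrl-i over all 10783 coding rows, and the 240 coding rows of the table over 10000 bases had a median of 2.11 FPKM. These are correlations across genes of the same libraries, and genes are not independent replicates. The libraries were made from poly(A) RNA, and the part of RNA integrity was not tested.

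**Figure D2:**
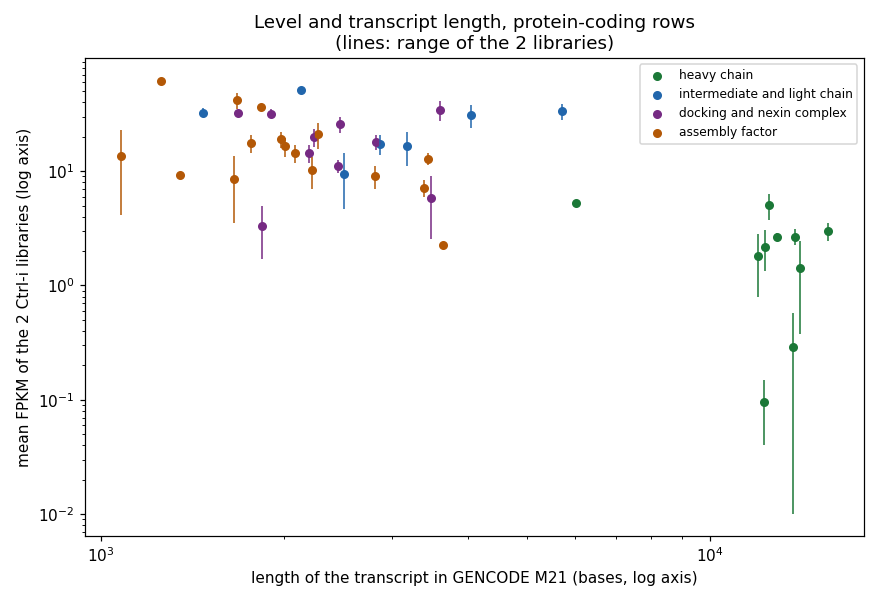
Mean FPKM of the 2 Ctrl-i libraries against the GENCODE M21 length of the transcript, both on log axes, for the 43 protein-coding member rows. Points are coloured by role and lines span the 2 libraries. All 10 heavy chain rows lie at the long end and at the lower levels, with a rank correlation of -0.61 over all points.

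The outer arm heavy chains are Dnah5, which is present along the whole axoneme, and its partners Dnah9 and Dnah11, which in human respiratory cilia occupy the distal and the proximal part. Dnah5 was detected at 2.43 and 3.53 FPKM in Ctrl-i and at 2.81 and 4.33 FPKM in Fmr-i1. Dnah9, summed over its 2 rows, was the most abundant heavy chain, with 7.64 and 8.26 FPKM in Ctrl-i and 8.23 and 10.96 FPKM in Fmr-i1. Dnah11 had 5.07 and 4.72 FPKM in Ctrl-i and 3.3 and 5.37 FPKM in Fmr-i1. In all 3 genes the values of the groups overlapped.

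Among the inner arm heavy chains, Dnah6 stood at 3.74 and 6.3 FPKM in Ctrl-i and 3.93 and 6.31 FPKM in Fmr-i1, so that it differed between experiments and hardly between groups. Dnah1 had 2.86 and 2.45 FPKM in Ctrl-i and 1.79 and 2.78 FPKM in Fmr-i1, again with overlap. Dnah12, summed over its rows, had 3.25 and 4.51 FPKM in Ctrl-i and 2.07 and 2.72 FPKM in Fmr-i1, and here both Fmr-i1 libraries lay below both controls. Dnah2, a subunit of the 2-headed inner arm, was near 0, with 0.57 and 0.01 FPKM in Ctrl-i and 0.01 FPKM in each Fmr-i1 library. Dnah3 was at 0.04 and 0.15 FPKM in Ctrl-i and at 0.04 and 1.13 FPKM in Fmr-i1. These last 2 were the only members below the mean of 1 FPKM needed to enter the fit.

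Dnah7a and Dnah7b are copies that share much sequence, which limits what the rows of Dnah7b show. Summed over 2 rows, Dnah7b had 4.97 and 5.36 FPKM in Ctrl-i and 4.85 and 9.48 FPKM in Fmr-i1. Its long coding row shared 63.5% of its 31-base words with transcripts of Dnah7a and Dnah7c, and its short row 45.9%, so reads could be split between the copies. The only row of Dnah7a was a 732-base transcript that GENCODE does not class as coding, with 7.62 and 1.35 FPKM in Ctrl-i and 1.43 and 3.85 FPKM in Fmr-i1. Only 4.70% of its 31-base words occur in other genes. In that row the highest and the lowest library were the 2 controls.

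The intermediate and light chains join the motors into arms and were the most abundant role per gene. Their sums over 7 genes were 171.08 and 227.29 FPKM in Ctrl-i and 200.68 and 205.26 FPKM in Fmr-i1, both Fmr-i1 libraries lying between the controls. Dnaic1 and Dnaic2 are the intermediate chains of the outer arm. Dnaic1 had 4.65 and 14.34 FPKM in Ctrl-i and 5.55 and 8.34 FPKM in Fmr-i1, with the controls further apart than the groups. Dnaic2 had 13.98 and 20.62 FPKM in Ctrl-i and 30.59 and 28.33 FPKM in Fmr-i1. Both Fmr-i1 libraries thus lay above both controls for Dnaic2, whose fitted log2 fold change was 0.76 ± 0.38 (SE), or 0.49 without Ctrl-i Exp.1. It was not called, with a limma adjusted p of 0.945.

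Dnali1, a light chain of the single-headed inner arms, was the most abundant gene of the group, with 47.58 and 55.02 FPKM in Ctrl-i and 36.8 and 40.56 FPKM in Fmr-i1. Both Fmr-i1 libraries lay below both controls, with a log2 fold change of -0.40 ± 0.32 (SE) and a limma adjusted p of 0.950. Dnal1, which binds the motor domain of an outer arm heavy chain, had 28.03 and 38.74 FPKM in Ctrl-i and 33.14 and 32.34 FPKM in Fmr-i1. Dnal4, another light chain, had 29.61 and 35.58 FPKM in Ctrl-i and 39.18 and 33.16 FPKM in Fmr-i1. Wdr63 and Wdr78 belong to the 2-headed inner arm. Wdr78 had 23.84 and 38.16 FPKM in Ctrl-i and 30.17 and 30.54 FPKM in Fmr-i1, and Wdr63, summed over its rows, had 23.39 and 24.83 FPKM in Ctrl-i and 25.25 and 31.99 FPKM in Fmr-i1. For Dnal1 and Wdr78 the Fmr-i1 values lay between the controls, for Dnal4 the ranges overlapped, and for Wdr63 both Fmr-i1 sums lay above both controls.

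The docking and nexin genes had sums over 11 genes of 180.02 and 248.51 FPKM in Ctrl-i and 247.78 and 217.71 FPKM in Fmr-i1. Again the lowest and the highest library were the controls. Ccdc114, Ccdc151, Ttc25 and Armc4 belong to the outer arm docking complex. Ccdc114 had 12.63 and 9.6 FPKM in Ctrl-i and 17.24 and 15.29 FPKM in Fmr-i1, with no overlap, a log2 fold change of 0.52 ± 0.40 (SE), or 0.34 without Ctrl-i Exp.2, and a limma adjusted p of 0.950. Its partner Ccdc151 had 11.74 and 16.92 FPKM in Ctrl-i and 17.2 and 13.48 FPKM in Fmr-i1, and Ttc25 had 16.43 and 23.34 FPKM in Ctrl-i and 15.95 and 17.53 FPKM in Fmr-i1. The groups overlapped in both of these genes. Armc4 had 2.57 and 9.08 FPKM in Ctrl-i and 5.12 and 1.89 FPKM in Fmr-i1, so that the order of the experiments was opposite in the groups.

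Ccdc103, which is needed to anchor outer arms on the doublets, had the lowest Ctrl-i mean of the docking and nexin genes. It was at 1.71 and 4.95 FPKM in Ctrl-i and at 7.91 and 9.15 FPKM in Fmr-i1. Both Fmr-i1 libraries lay above both controls, and the 2 controls themselves were far apart. The log2 fold change of 1.24 ± 0.52 (SE) was the highest of all member rows, and it was not called, with a limma adjusted p of 0.945. With 1 library left out at a time, it ran from 0.68 to 1.81.

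Ccdc39 and Ccdc40 form the ruler that sets the axonemal repeat on which inner arms and nexin links sit. Ccdc39 had 27.25 and 41.52 FPKM in Ctrl-i and 28.04 and 37.37 FPKM in Fmr-i1. Of the exonic bases of its transcript, 34.2% overlap Ttc14 on the opposite strand, and the sources used here do not say whether fragments were assigned by strand. The only row of Ccdc40 was a non-coding transcript of 1662 bases, with 10.61 and 23.29 FPKM in Ctrl-i and 26.37 and 15.76 FPKM in Fmr-i1. Its values are therefore no measure of the coding transcripts, and its groups overlapped.

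Drc1, Ccdc65, Gas8 and Drc7 are subunits of the nexin-dynein regulatory complex. Drc1 had 21.66 and 29.93 FPKM in Ctrl-i and 35.58 and 31.58 FPKM in Fmr-i1, with a log2 fold change of 0.38 ± 0.36 (SE) and a limma adjusted p of 0.951, and it was 0.16 without Ctrl-i Exp.1. Gas8 had 31.18 and 34.03 FPKM in Ctrl-i and 42.96 and 34.51 FPKM in Fmr-i1. In both genes the lower Fmr-i1 library lay just above the higher control. Drc7 stood the other way round, with 15.33 and 20.89 FPKM in Ctrl-i and 14.31 and 14.28 FPKM in Fmr-i1, and Ccdc65 had 28.91 and 34.96 FPKM in Ctrl-i and 37.1 and 26.87 FPKM in Fmr-i1, outside the controls on both sides. None of these subunits was called, and their groups did not stand the same way round.

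The assembly factors had sums over 15 genes of 302.74 and 319.03 FPKM in Ctrl-i and 325.63 and 320.22 FPKM in Fmr-i1. Both Fmr-i1 sums lay above both controls, the lower of them just so. Lrrc6 and Zmynd10 bind each other during arm assembly. Lrrc6 had 11.77 and 17.04 FPKM in Ctrl-i and 24.11 and 24.82 FPKM in Fmr-i1, with no overlap, a log2 fold change of 0.75 ± 0.38 (SE), or 0.50 without Ctrl-i Exp.1, and a limma adjusted p of 0.945. Zmynd10 had 14.53 and 20.65 FPKM in Ctrl-i and 19.57 and 23.94 FPKM in Fmr-i1, with overlap.

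Dnaaf1, Dnaaf2, Dnaaf3 and Dnaaf5 are further assembly factors that cilia of several tissues require. Dnaaf2 had 8.29 and 5.93 FPKM in Ctrl-i and 8.97 and 12.5 FPKM in Fmr-i1, and Dnaaf5 had 14.32 and 11.32 FPKM in Ctrl-i and 14.86 and 17.44 FPKM in Fmr-i1. Both lay higher in both Fmr-i1 libraries, Dnaaf5 by a small margin. Dnaaf1 had 11.03 and 6.95 FPKM in Ctrl-i and 9.27 and 11.32 FPKM in Fmr-i1, and Dnaaf3 had 7.02 and 13.3 FPKM in Ctrl-i and 11.29 and 10.57 FPKM in Fmr-i1. These overlapped. Of the 31-base words of Dnaaf2, 39.3% recur in transcripts of other genes, and 20.7% of the exonic bases of Dnaaf1 overlap Taf1c.

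Spag1 and Dyx1c1 carry protein repeats that bind chaperones. Spag1 was low and steady, with 2.38 and 2.13 FPKM in Ctrl-i and 2.22 and 2.05 FPKM in Fmr-i1. Dyx1c1 had 16.02 and 21.97 FPKM in Ctrl-i and 14.84 and 24.29 FPKM in Fmr-i1, and 58.6% of its 31-base words are shared with the annotated gene Gm44503. Neither gene separated the groups.

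Ruvbl1, Ruvbl2, Rpap3 and Pih1d1 form the general R2TP chaperone complex, which also serves complexes outside cilia, and Wdr92 works with it in dynein assembly. Ruvbl2 had 36.48 and 36.25 FPKM in Ctrl-i and 53.64 and 40.23 FPKM in Fmr-i1, and Wdr92 had 13.37 and 19.7 FPKM in Ctrl-i and 26.66 and 21.61 FPKM in Fmr-i1. Both were higher in both Fmr-i1 libraries. Ruvbl1, the ring partner of Ruvbl2, had 35.29 and 48.28 FPKM in Ctrl-i and 43.74 and 37.61 FPKM in Fmr-i1, and 64.7% of its 31-base words recur in the annotated genes Gm5837 and Gm7499. Rpap3 had 26.64 and 15.71 FPKM in Ctrl-i and 28.71 and 22.05 FPKM in Fmr-i1. Pih1d1 had 22.82 and 4.16 FPKM in Ctrl-i and 4.78 and 14.6 FPKM in Fmr-i1, and the controls held both the highest and the lowest value. Groups overlapped for these last 3 genes.

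Pih1d2, a protein with the PIH domain found in several assembly factors, was the most abundant member by its Ctrl-i mean, and it had 2 rows. The coding transcript ENSMUST00000000171 lies on chr9:50617321-50624997 of GRCm38 with 6 exons and 1256 bases. The row ENSMUST00000155773 is a retained-intron transcript of 2 exons and 450 bases on chr9:50617521-50618817. The 30-base windows below, from the GRCm38 annotation, are printed because they hold the place where the rows part. The lower-case bases, chr9:50618635-50618649 in exon 2, are shared, and the capitals belong to 1 row alone. In the coding row they come from exon 3 at chr9:50619755-50619769, and in the other row from the intron that follows at chr9:50618650-50618664.
Pih1d2 ENSMUST00000000171: cagaccaagatcctaAAACCAAACGAAAAA
Pih1d2 ENSMUST00000155773: cagaccaagatcctaGTATGTAGAACTGAT

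The coding row of Pih1d2 had 63.11 and 59.18 FPKM in Ctrl-i and 51.24 and 47.97 FPKM in Fmr-i1. Both Fmr-i1 libraries lay below both controls, with a log2 fold change of -0.30 ± 0.31 (SE) and a limma adjusted p of 0.955. The retained-intron row had 7.23 and 13.41 FPKM in Ctrl-i and stood at 0 FPKM in Fmr-i1, in Exp.1 as in Exp.2, which made it 1 of the 162 rows of that kind. Its limma adjusted p was 0.551, the lowest of all member rows, so it was not called. Of the 31-base words of this row, 60.0% also occur in the coding row, so that fragments from the shared part could be assigned to either. Summed over both rows, Pih1d2 had 70.34 and 72.59 FPKM in Ctrl-i and 51.24 and 47.97 FPKM in Fmr-i1, with a log2 fold change of -0.52 ± 0.31 (SE) and a limma adjusted p of 0.915, a value that takes in the row at 0.

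Daw1, whose counterpart in Chlamydomonas helps to carry outer arms into the flagellum, also had 2 rows, both coding. ENSMUST00000065403 has 13 exons and 1651 bases and ENSMUST00000065436 has 10 exons and 1349 bases, and 96.4% of the 31-base words of the second occur in the first. The windows show where they part, with the shared bases in lower case at chr1:83183364-83183378 in exon 5. The capitals are the next bases of each row, from exon 6 at chr1:83187906-83187920 and from exon 6 at chr1:83197221-83197235, the second row passing over exons of the first.
Daw1 ENSMUST00000065403: caacaatccttacggTGATAAAATTGCCAC
Daw1 ENSMUST00000065436: caacaatccttacggGAAGGTGCACACTTT

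The shorter row of Daw1 had 8.93 and 9.52 FPKM in Ctrl-i and 1.73 and 4.87 FPKM in Fmr-i1. Both Fmr-i1 libraries lay below both controls, with a log2 fold change of -1.35 ± 0.53 (SE) and a limma adjusted p of 0.945, and it was -0.80 without Fmr-i1 Exp.1. The longer row had 3.51 and 13.53 FPKM in Ctrl-i and 10.0 and 4.35 FPKM in Fmr-i1, with overlap. Summed over the rows, Daw1 had 12.44 and 23.05 FPKM in Ctrl-i and 11.73 and 9.22 FPKM in Fmr-i1, a log2 fold change of -0.66 ± 0.44 (SE) with a limma adjusted p of 0.915. The sum lay below the controls in both Fmr-i1 libraries, in Exp.1 by less than 1 FPKM.

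The other 5 of the 7 genes with 2 rows were Dnah9, Dnah7b, Dnah12, Wdr63 and Dnah11. The short coding row of Dnah9, ENSMUST00000152386, shared 99.6% of its 31-base words with the long row, ENSMUST00000080665. It had 5.39 and 5.16 FPKM in Ctrl-i and 5.63 and 9.39 FPKM in Fmr-i1, against 2.25 and 3.1 FPKM in Ctrl-i and 2.6 and 1.57 FPKM in Fmr-i1 for the long row. The short row lay above the controls in both Fmr-i1 libraries, with a log2 fold change of 0.40 ± 0.49 (SE) and a limma adjusted p of 0.955. That value rested on Fmr-i1 Exp.2, without which it was 0.08, and it was 0.73 without Fmr-i1 Exp.1. The groups overlapped in the long row.

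The row of Dnah7b that GENCODE marks for nonsense-mediated decay, ENSMUST00000185879, had 3.64 and 2.32 FPKM in Ctrl-i and 3.35 and 7.81 FPKM in Fmr-i1. Only Fmr-i1 Exp.2 stood apart, and the log2 fold change was 0.66 ± 0.59 (SE) with a limma adjusted p of 0.951. It was 0.15 without that library. The coding row had 1.33 and 3.04 FPKM in Ctrl-i and 1.5 and 1.67 FPKM in Fmr-i1, so that library was not high there. For Dnah12, the row ENSMUST00000165269 had 2.45 and 1.69 FPKM in Ctrl-i and 1.02 and 1.38 FPKM in Fmr-i1, a log2 fold change of -0.47 ± 0.49 (SE) with a limma adjusted p of 0.955, or -0.29 without Ctrl-i Exp.1, and the coding row had 0.8 and 2.82 FPKM in Ctrl-i and 1.05 and 1.34 FPKM in Fmr-i1. The first row separated the groups and the second did not. That first row was the member row not found in GENCODE M21, so its type and transcript length are unknown here.

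In Wdr63 the coding row had 11.05 and 21.94 FPKM in Ctrl-i and 20.2 and 15.97 FPKM in Fmr-i1. The 770-base non-coding row ENSMUST00000162572 had 12.34 and 2.89 FPKM in Ctrl-i and 5.05 and 16.02 FPKM in Fmr-i1. In both groups 1 row was high where the other was low, while the sums of 23.39, 24.83, 25.25 and 31.99 FPKM lay closer together. The log2 fold change of the short row was 0.49 ± 0.85 (SE) with a limma adjusted p of 0.963, and it turned to -0.39 without Ctrl-i Exp.2 and to -0.25 without Fmr-i1 Exp.2. In Dnah11 the long coding row had 0.38 and 2.44 FPKM in Ctrl-i and 0.35 and 1.27 FPKM in Fmr-i1, and the row marked for nonsense-mediated decay had 4.69 and 2.28 FPKM in Ctrl-i and 2.95 and 4.1 FPKM in Fmr-i1. Neither row of Dnah11 separated the groups.

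**Figure D3:**
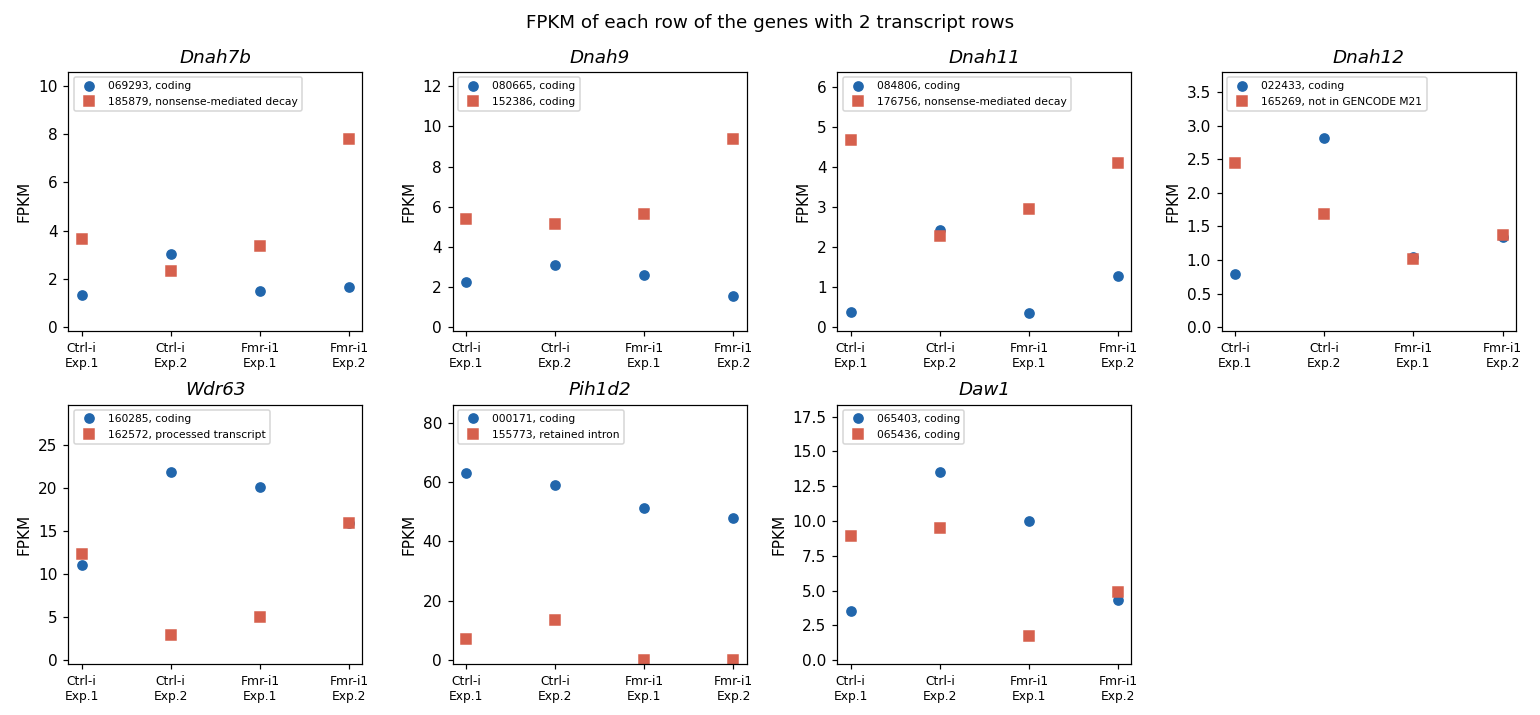
FPKM of each transcript row in the 4 libraries for the 7 genes with 2 rows, blue circles for the first row and red squares for the second, with the last digits of the transcript and its GENCODE type. The second row of Pih1d2 is at 0 in the pair of Fmr-i1 libraries, and in Wdr63 the rows stand at 21.94 and 2.89 FPKM in Ctrl-i Exp.2 but at 15.97 and 16.02 FPKM in Fmr-i1 Exp.2.

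The comparison of Fmr-i1 with Ctrl-i asked whether depletion of Fmrp, an RNA-binding protein that regulates translation, went with other levels of these mRNAs in multicilia. In the limma fit across 11898 rows, with the experiment as a block, 0 rows were called higher (0.0%) and 0 lower (0.0%) at an adjusted p under 0.05, members included. At an unadjusted p under 0.05 stood 2 of the 48 member rows in the fit, the retained-intron row of Pih1d2 and the shorter row of Daw1, against 5.03% of all rows. Without the experiment as a block, 1 row of the table was called higher and 2 were called lower, none of them a member. An exact permutation test of 2 against 2 libraries cannot go below p = 0.333, two-sided.

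The median log2 fold change was 0.02 over the 48 member rows and 0.16 over all rows. This small value rested on the controls, since it was -0.14 without Ctrl-i Exp.1 and 0.26 without Ctrl-i Exp.2. A positive log2 fold change was fitted for 26 of 48 member rows, against 63.3% of all rows. By role, the median was -0.21 for 12 heavy chain rows, 0.08 for 8 intermediate and light chain rows, 0.10 for 11 docking and nexin rows and 0.16 for 17 assembly factor rows. Scaling each library to a common median brought the median of all rows to -0.01, and relative to the shift of 0.16 the member median was -0.14 and the heavy chain median -0.37. When FPKM was first summed per symbol, the member median was 0.10 and that of the heavy chains -0.07. Of the 41 genes then tested, 11 lay above both controls in both Fmr-i1 libraries, against 27.2% of all symbols, and 5 lay below, against 9.99%.

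**Figure D4:**
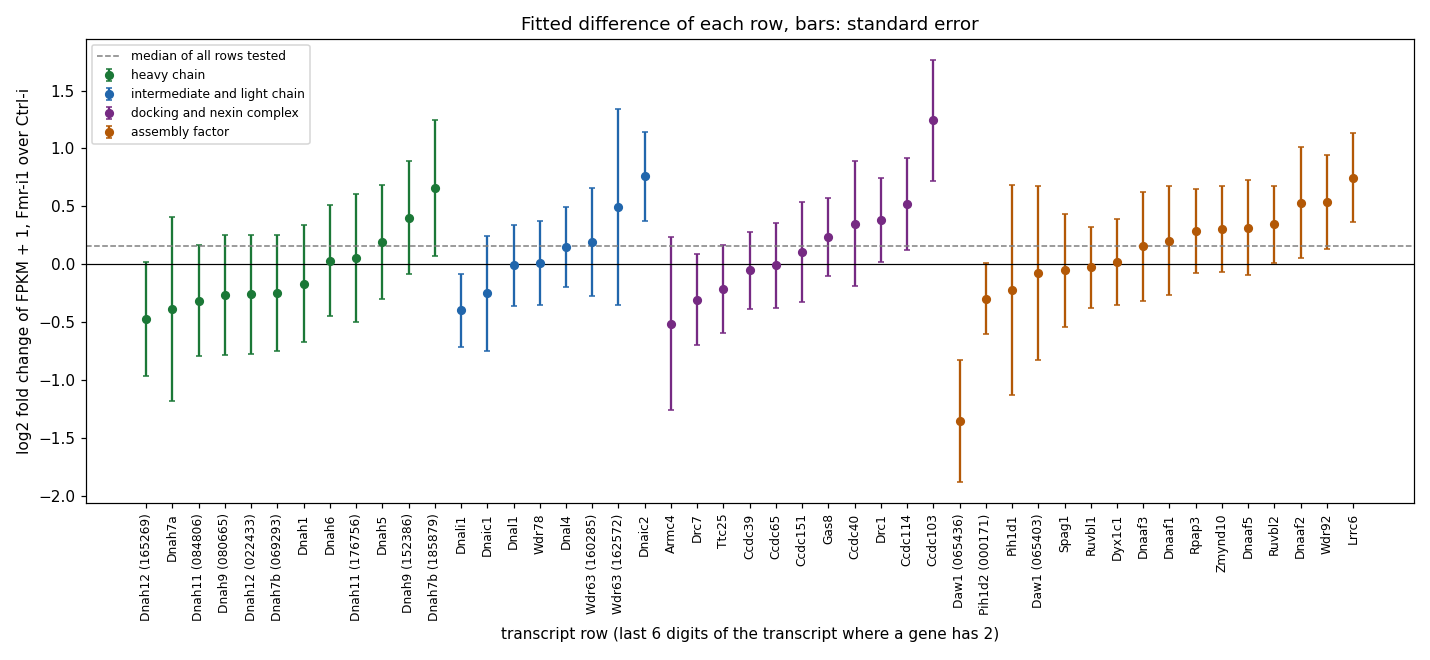
Fitted log2 fold change of FPKM + 1, Fmr-i1 over Ctrl-i, for 47 of the 48 member rows in the fit, ordered within each role. Bars are standard errors, the dashed line is the median of all rows at 0.16, and the Pih1d2 row listed at 0 in Fmr-i1 is left out. Most bars cross 0, Ccdc103 is the highest at 1.24 and the shorter row of Daw1 the lowest at -1.35.

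Both Fmr-i1 libraries lay above both controls in 11 of 48 member rows, against 25.7% of all rows. These were Dnah9 (the shorter row), Dnaic2, Ccdc103, Ccdc114, Drc1, Gas8, Lrrc6, Wdr92, Dnaaf2, Ruvbl2 and Dnaaf5. Both lay below in 6 member rows, against 11.2% of all rows, namely Dnah12 (ENSMUST00000165269), Dnali1, Drc7, the shorter row of Daw1 and both rows of Pih1d2. These shares are near the background, and in 31 rows the groups overlapped. Of the 11 rows above, 4 belong to docking and nexin genes and 5 to assembly factors. After scaling each library to a common median, 5 member rows lay above both controls, namely Dnaic2, Ccdc114, Ccdc103, Lrrc6 and Dnaaf2, against 16.6% of all rows, and 9 lay below, against 18.7%.

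The experiments were also read one at a time. In Exp.1, 31 of 48 member rows were higher in Fmr-i1, against 54.3% of all rows, and in Exp.2 it was 23 of 48, against 63.0%. The docking and nexin rows stood at 9 of 11 in Exp.1 and 4 of 11 in Exp.2, and the intermediate and light chain rows at 6 of 8 and 2 of 8. The assembly factors stood at 10 of 17 in each experiment and the heavy chains at 6 of 12 and 7 of 12. Rows higher in both experiments numbered 15, against 34.2% of all rows, and rows lower in both numbered 9, against 16.6%. The remaining 24 rows went opposite ways in the experiments.

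Over the 48 member rows, Pearson's r between the log2 ratios of the experiments was 0.09 and Spearman's rho -0.14, and over all rows r was 0.04. These are correlations across genes and are given as a description. The 2 libraries of a group were compared in the same way. Ctrl-i Exp.2 lay above Ctrl-i Exp.1 in 32 of 48 member rows, against 42.6% of all rows, with a median log2 difference of 0.43 for members and -0.11 for all rows. For Fmr-i1 it was 26 of 48, against 53.4%. The median absolute log2 difference of member rows was 0.49 between the controls and 0.31 between the Fmr-i1 libraries, and 0.38 and 0.45 between the groups in Exp.1 and Exp.2. The groups thus differed by less than the controls did from each other, but by more than the Fmr-i1 libraries did. Over all rows the median was 0.44 between the controls and 0.42 between the Fmr-i1 libraries. Between the groups it was then 0.42 in Exp.1 and 0.52 in Exp.2.

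In 5 of 48 member rows the libraries of each group differed more than 2-fold between the experiments, in opposite directions in the groups, against 5.31% of all rows. These rows were Armc4, Pih1d1, the longer row of Daw1, the Dnah7a row and the short row of Wdr63. In Pih1d1, Dnah7a and Wdr63, Ctrl-i Exp.1 and Fmr-i1 Exp.2 were high, and in Armc4 and Daw1 the other 2 libraries were. The fitted values of these rows average 2 large and opposite differences. All 4 libraries correlated over the member rows with r between 0.786 and 0.940, the highest being that of the Fmr-i1 libraries with each other.

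**Figure D5:**
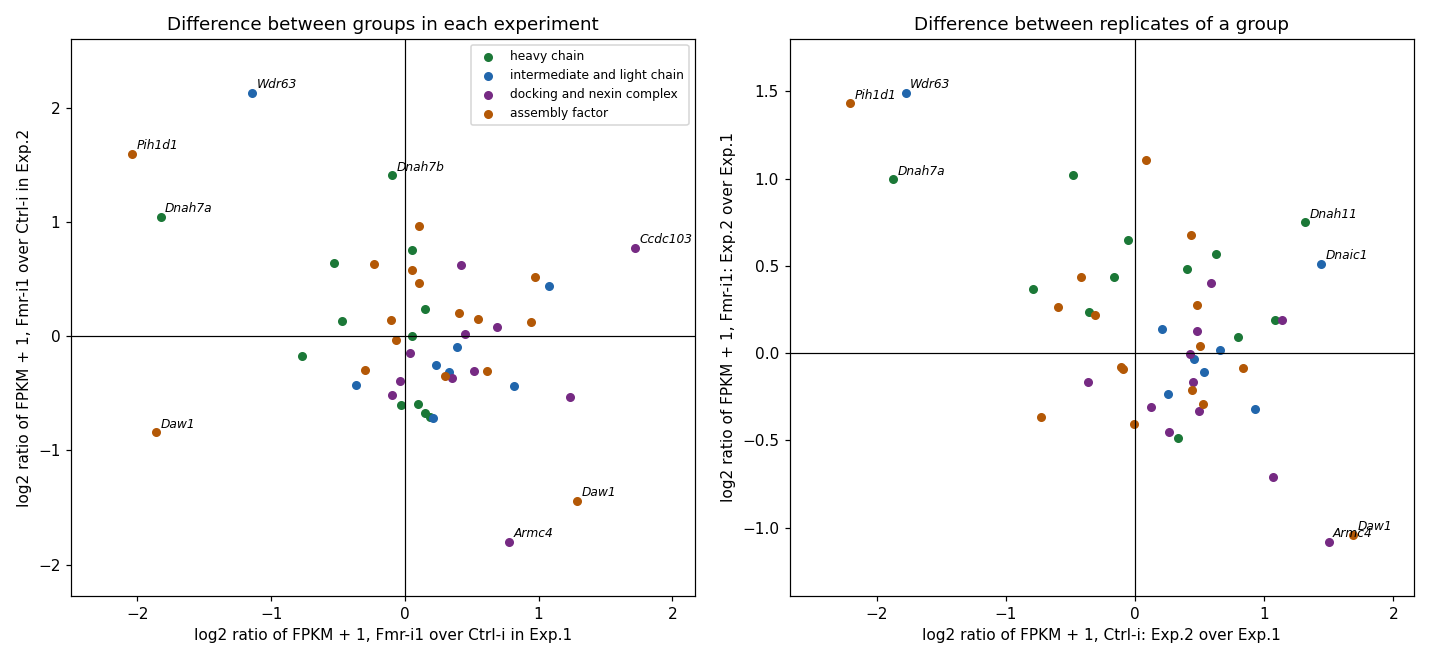
Left, log2 ratio of FPKM + 1 between Fmr-i1 and Ctrl-i in Exp.2 against that in Exp.1, for 47 member rows, without the Pih1d2 row listed at 0 in Fmr-i1. Right, the log2 ratio between the experiments in Fmr-i1 against that in Ctrl-i, for the same 47 rows, and in both panels colours mark the role. Ccdc103 is the point highest in Exp.1 among rows higher in both, and Armc4, Pih1d1, Wdr63, Dnah7a and the longer row of Daw1 lie far out in the upper left and lower right corners.

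Genes of motile cilia share promoter motifs, and the X-box bound by RFX factors is the best known of them. RefSeq promoters of GRCm38.p6, 250 bases before to 50 bases after the start, were found for 35 of the 43 genes. The half-site letters GTTGCNA, searched on both strands, occurred in 20 of 35 member promoters (57.1%), against 11.9% of 27025 promoters. The form GTTGCTA, which is contained in GTTGCNA, occurred in 15 of 35 (42.9%), against 4.28%. Both were among 13 forms looked at and were singled out after their matches were seen. The X-box forms below were searched with fixed letters and spacing, so they do not count pairs of half-sites in other layouts. The form GTTGCC occurred in 25.7% of member promoters against 14.1%, TGTTGCC in 8.57% against 4.84%, a spaced X-box with both half-sites in 1 of 35, and the full X-box palindrome in 0 of 35. GTTGCNA matched in 6 of 9 heavy chain, 4 of 6 intermediate and light chain, 6 of 9 docking and nexin and 4 of 11 assembly factor promoters. The forkhead letters TGTTTAC matched in 0 of 35, against 4.05%.

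The 30-base windows below show matches near the start site in genes of 3 roles, with GTTGCTA in capitals, and were chosen after the matches were seen. They lie at chr1:53706817-53706846 (plus strand) for Dnah7a, chr1:46066824-46066853 (minus) for Dnah7b, chr11:114727375-114727404 (plus) for Dnaic2, chr11:102881210-102881239 (plus) for Ccdc103, chr5:30281387-30281416 (minus) for Drc1, chr15:98708170-98708199 (plus) for Ccdc65 and chr3:33844275-33844304 (minus) for Ccdc39.
Dnah7a: cgtggtcgattcGTTGCTAagcaacaaact
Dnah7b: caaggtcgattcGTTGCTAagcaacaaact
Dnaic2: gcccggccaggGTTGCTAggcaactggtaa
Ccdc103: ctggtggcgccGTTGCTAggcaacaatctc
Drc1: accagcagccggGTTGCTAggaacaagccg
Ccdc65: cgaaggtccttGTTGCTAggagacaagatg
Ccdc39: ggcgcctggctGTTGCTAgggccgcggaat

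The match was centred 30 bases before the start of Dnaic2, 10 bases before that of Ccdc65 and at the start of Ccdc103, while in Ccdc39 it lay 20 bases after it. The windows of the copies Dnah7a and Dnah7b share the whole stretch from the motif onward. In the windows of Dnah7a, Dnah7b, Dnaic2 and Ccdc103, a second, inverted half-site follows the capitals. It lies closer than the spaced X-box forms searched allow, so those forms miss it. In Dnah7a and Dnah7b the half-sites also lack the letters CC that those forms fix. Their counts are therefore no measure of all paired half-sites in member promoters. Genes with GTTGCNA had a median log2 fold change of 0.13 over 24 rows and those without it -0.03 over 17 rows, against 0.16 for all rows. A match is a description of the letters and not of binding.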

How the data were processed

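Poly(A) RNA of 4 libraries of purified multicilia was analysed from 1 deposited table of FPKM per transcript. In the methods the authors give Cutadapt 1.9.1 for trimming, Hist 2.0.1 (spelled so) for mapping to GRCm38 and Cuffdiff 2.2.1 for FPKM. The submitters' processing notes list HISAT2 2.1.0 and featureCounts 1.5.3 instead, so the tool behind the deposited FPKM was not settled. The kit kept strand, but use of strand in counting is not stated.

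The members, lists and tests were chosen with earlier results of these data known. Rows were matched by symbol and transcript to GENCODE M21 (49 of 50 matched). Rows averaging 1 FPKM or more were tested on log2(FPKM + 1) by limma 3.58.1 (R 4.3.3), using a variance trend, a block for the experiment (1 residual degree of freedom) and Benjamini-Hochberg adjustment over all rows. Fold changes are on this scale, which understates those of low rows. The experiment number comes from the labels. Deviations of same-numbered libraries from their group means had r = -0.08 over all rows and -0.57 over the 48 member rows, so same-numbered libraries did not deviate together. The fit was tested on simulated data. Every member is given with its FPKM, and a fold change for the 3 rows of each of 4 roles with the smallest p, except the Pih1d2 row at 0. Those of the Pih1d2 coding row and of the sums of Pih1d2 and Daw1 were added after their values were seen. Shared sequence was counted in 31-base words. Alternatives were other pseudocounts (0.1 and 5 FPKM), other filters (none, and a mean of 5 FPKM), median scaling, sums per symbol, no block and each library left out. Added after seeing the data were counts over coding rows alone and without the row at 0.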

Additional observations from a re-analysis of the deposited data

How the results depend on the processing

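Member rows called numbered 0 under the 11 other ways of processing, where the lowest adjusted p of a member row ran from 0.235 to 0.932. Median scaling moved the member rows higher in both Fmr-i1 libraries from 11 to 5 and the member median from 0.02 to -0.15, since a common median lowers Fmr-i1 values against Ctrl-i. Without the experiment as a replicate block, 1 row of the table was called higher and 2 lower, against 0 and 0 with it. That change of counts says nothing of pairing, because same-numbered libraries did not deviate together. With 1 library left out at a time, the member median ran from -0.14 to 0.26. In these fits a lone library is assumed to vary like the others. Of 130 comparisons of the 12 rows with the smallest p, 128 kept direction and side of the threshold. The filters and the removal of the block leave a fitted value as it is, and no row came near the threshold. Many of these comparisons therefore had little room to change. The short row of Wdr63 went from 0.49 to 1.38 without Ctrl-i replicate 1, but reversed to -0.39 without Ctrl-i replicate 2 and to -0.25 without Fmr-i1 replicate 2, and the cause was not tested. Chosen after seeing the data, the 41 coding member rows alone gave 11 rows above both controls (against 25.7% of all rows), 4 below (against 11.2%) and a median of 0.02, and the 47 member rows without the one at 0 gave 11, 5 and 0.03. With no counts deposited, the precision of low values such as those of Dnah2 and Dnah3 is unknown.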

Other observations

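A wider set of 33 other genes of the arms, the nexin complex and assembly had rows for 23, and 31 of their rows entered the limma fit. None was called, 20 log2 fold changes were positive, against 63.3% of all rows, and 11 negative, and the median was 0.12, against 0.16 for all rows. Both Fmr-i1 libraries lay above both controls in 9 of these rows, against 25.7% of all rows, and below in 4, against 11.2%. A further list held the cytoplasmic dyneins, which carry cargo along microtubules in the cell body and back down the cilium, and other genes. These others were the dynactin genes Dctn1 to Dctn6, Actr1a, Actr1b and Actr10, and also Capza1, Capza2, Capzb, Nde1, Ndel1 and Pafah1b1. Over the whole list, 23 of 24 genes had rows, with 28 rows in the fit. None of these was called, 22 log2 fold changes were positive, against 63.3% of all rows, and 6 negative, and the median was 0.26. In 7 of the rows both Fmr-i1 libraries lay above both controls, against 25.7%, and in 1 below, against 11.2%.

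Of the 6 member rows in the fit that GENCODE classes as other than coding, 5 went opposite ways in the experiments, as did 5803 of all 11898 rows. The remaining one was the retained-intron row of Pih1d2, and 0 were higher in Fmr-i1 in both experiments.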
